A study of Mus musculus with 2 samples.

Results

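The genes described here encode the subunits of the mitochondrial respiratory chain and ATP synthase that are made from nuclear DNA, together with the assembly factors of complex I that carry the same symbol prefix. They were chosen by annotated symbol: every gene whose symbol begins with Nduf, Uqcr, Cox4 to Cox8 or Atp5, or is Sdha, Sdhb, Sdhc or Sdhd, and that at least 1 probe set names alone. The rule found 90 of the 18193 genes on the array: 36 of complex I, 4 of complex II, 8 of complex III, 17 of complex IV, 17 of complex V and 8 Ndufaf assembly factors. Of the 90, 81 had signal above a floor of 5 on the log2 scale (an intensity of 32), all 81 on both arrays. The symbol rule used no measured value.

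The respiratory chain passes electrons from NADH (complex I) and succinate (complex II) through coenzyme Q, complex III and cytochrome c to complex IV, which reduces oxygen. Complexes I, III and IV pump protons across the inner mitochondrial membrane, and complex V, the ATP synthase, uses the returning protons to make ATP. Apart from complex II, each complex also holds subunits made from mitochondrial DNA, so its assembly needs both genomes and dedicated assembly factors that do not stay in the finished enzyme.

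The cells were urogenital sinus mesenchyme (UGM) cells of male C57BL/6 mice at day 16, the fetal stroma that surrounds the epithelium from which the prostate buds. Both cultures were grown in RPMI medium with 5% fetal bovine serum and 5 µg/ml Plasmocin, an antibiotic against mycoplasma, and were then moved to 5% charcoal-stripped serum, from which most steroids have been removed. The untreated culture received no hormone, whereas the T+E2 culture received 12 nM testosterone and 120 pM estradiol-17β for 72 h. RNA of each culture was hybridised to 1 Affymetrix mouse array, so there were 2 arrays in all. The sample titles carry 24 h where the other labels give 72 h. The descriptions call the untreated cells confluent and the T+E2 cells near confluent, while the growth protocol gives 80% for both. How density affects these genes was not tested. With 1 array per group no difference below has a replicate check, and no p-value was computed.

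The arrays held 45101 probe sets, and 10267 genes were above the floor on at least 1 array. Over those genes the median difference, T+E2 minus untreated, was 0.07 on the log2 scale (interquartile range -0.32 to 0.45). The 18 probe sets of the hybridization spikes, which are added to both arrays in equal amount and show array error only, differed by -0.25 to 0.09 (SD 0.12). They read only the transcripts BioB, BioC, BioD and Cre, so this range rests on few transcripts. The control probe sets for beta-actin were higher with T+E2 by 0.22 to 0.29 and those for Gapdh by 0.19 to 0.26, and those for 18S rRNA were lower, at -1.58 to -0.62. Of the 12 mesenchyme markers, 9 were above the floor (Thy1, Hoxd13 and Hoxa13 were not), with a summed intensity of 151158 untreated and 179915 with T+E2. Of 10 epithelial markers only Cdh1 and Trp63 were above it, and the epithelial sum was 333 untreated and 579 with T+E2; Epcam and all 5 keratins were below the floor. All 4 leukocyte, all 5 striated muscle, all 4 fat and all 3 neural markers on the array were below the floor on both arrays. Of 4 endothelial markers only Tek was above it.

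With T+E2 nearly all measured members were lower, most of them by a small amount. The difference was below 0 for 77 of 81 members (95.1%), against 43.7% of all measured genes. Their median was -0.30 (interquartile range -0.57 to -0.17), an intensity 18.8% lower than in the untreated culture. The 4 members above 0 were Sdha, Atp5a1, Ndufa10 and Ndufv1. A total of 19 members (23.5%) were at least 1.5-fold lower, where 14.1% of all measured genes were. At least 1.5-fold higher were 0 members, against 17.1% of all measured genes. At least 2-fold lower were 2 members, Ndufaf5 and Ndufaf6, against 4.01% of all measured genes, and 0 were at least 2-fold higher, against 4.96%. The members thus shared a direction more than a large size of difference. Against the array error, 47 members (58.0%) lay below the lowest hybridization spike, as did 28.5% of all measured genes; 31 members lay within the range of the spikes and 3 above it. In whole cultures such a difference can reflect fewer cells of a type or less RNA per cell, and these cannot be told apart.

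**Figure D1:**
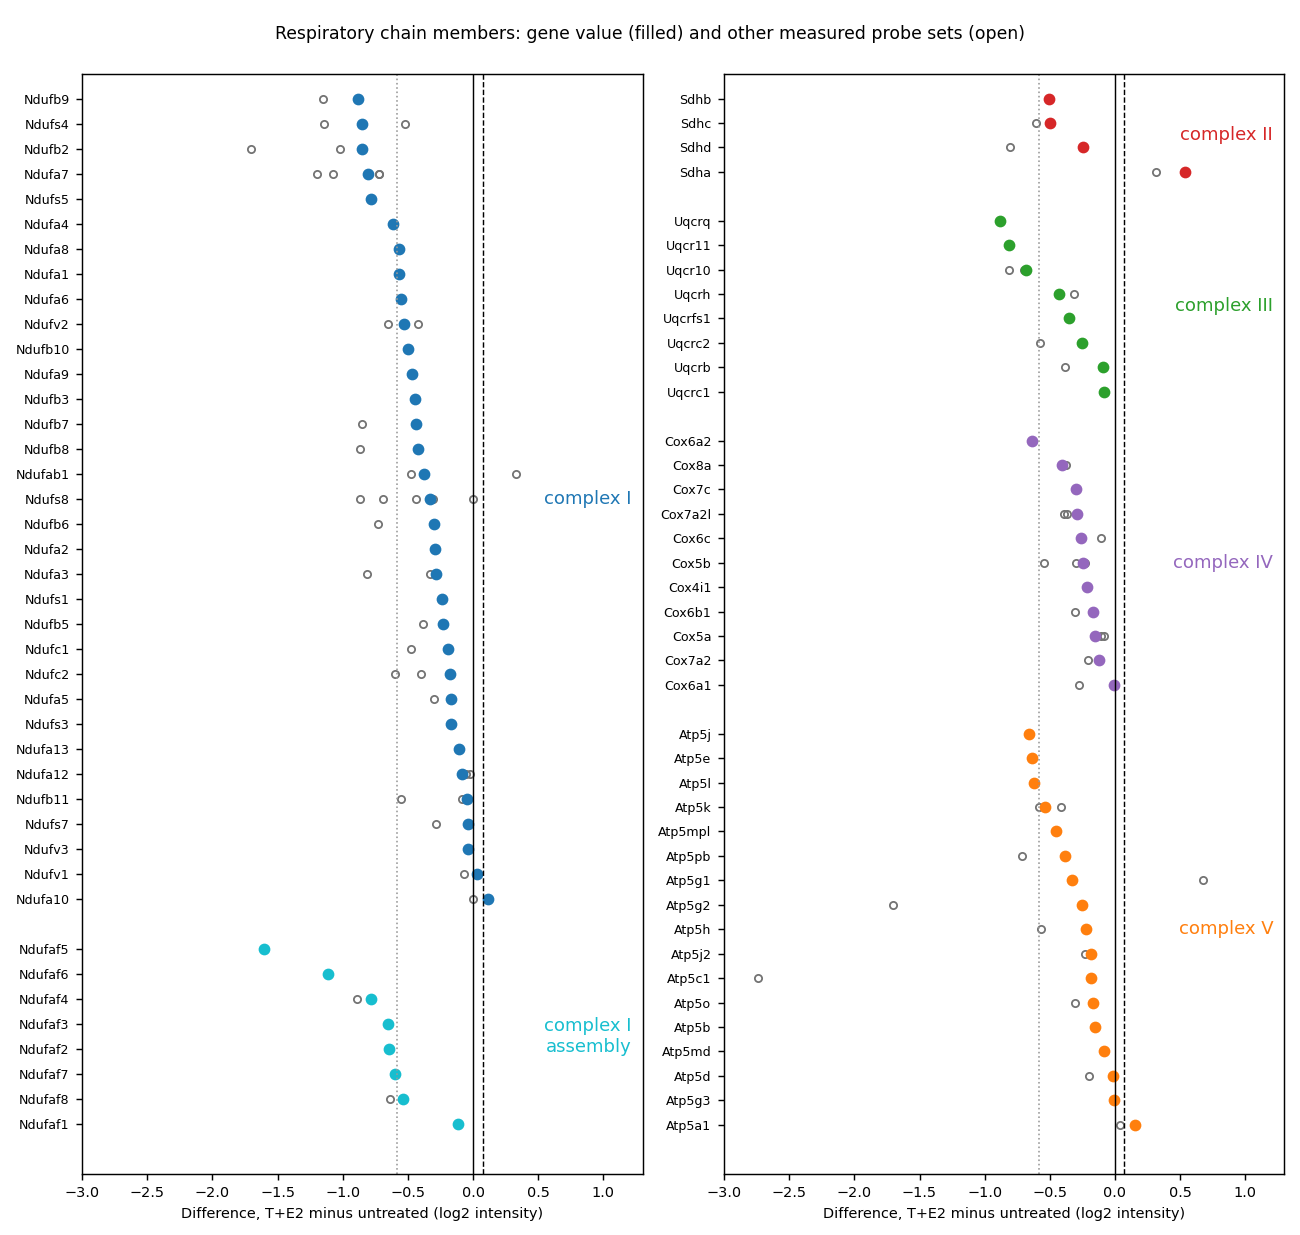
Difference in log2 intensity, T+E2 minus untreated, for the 81 measured members (filled points, sorted within each complex) and for their other probe sets above the floor (open points); 1 array per group, so no error bars. The solid line marks no difference, the dashed line the median of all measured genes (0.07) and the dotted line a 1.5-fold lower intensity; 77 of 81 filled points lie left of 0.

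By complex, the medians ran from -0.22 for complex V and -0.25 for complex IV to -0.33 for complex I, -0.37 for complex II and -0.39 for complex III. The lowest median, -0.65, belonged to the 8 Ndufaf assembly factors. Their signal was weaker than that of most subunits, with untreated intensities from 450 (Ndufaf6) to 6232 (Ndufaf8). Over all measured genes the SD of the difference was 0.61 at a mean log2 of 9 to 11 and 0.20 at 14 or more. The 73 subunit genes without these factors had a median of -0.29, with 69 below 0 (94.5%, against 43.7% of all measured genes). Of these subunit genes 13 (17.8%) were at least 1.5-fold lower, near the 14.1% of all measured genes. At least 2-fold lower were 0, against 4.01%. The other members at least 1.5-fold lower were 6 of the 8 Ndufaf genes. The 5 complexes overlapped widely in the differences of their members, and the order of their medians has no replicate behind it. The order also changed with the processing: with the mean of all probe sets complex V was at -0.40 and complex III at -0.36, and with the trend with genomic span removed complex IV was at -0.063 and complex V at -0.11.

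**Figure D2:**
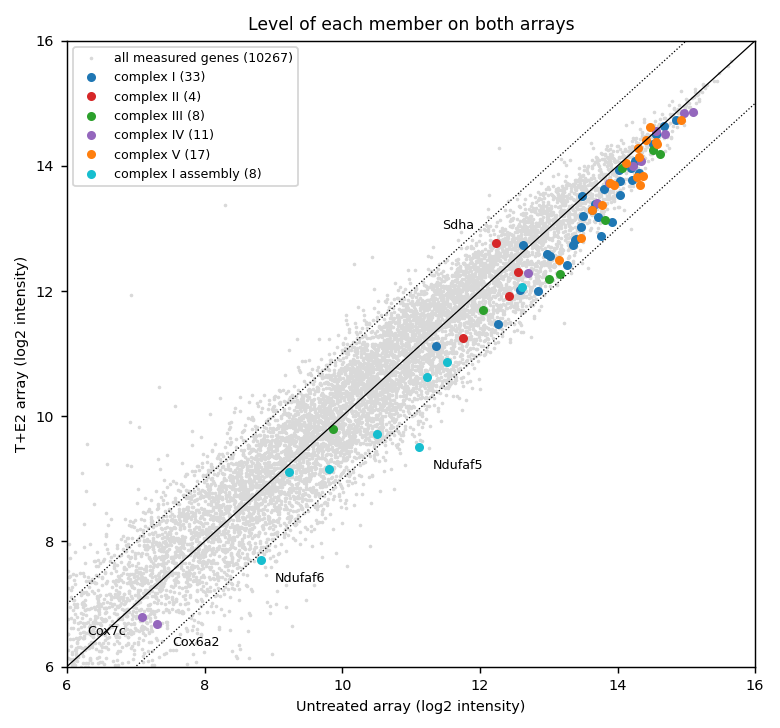
Log2 intensity of each measured member on the untreated array (x axis) and on the T+E2 array (y axis), coloured by complex, over all measured genes in grey (signals under the start of the axes are not drawn). The solid diagonal marks equal signal and the dotted lines a 2-fold difference; most members lie just under the diagonal, Ndufaf5 and Ndufaf6 lie below the lower dotted line and Sdha lies above the diagonal.

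Complex I takes electrons from NADH at the tip of its peripheral arm, where flavin and a chain of iron-sulfur clusters lead to coenzyme Q. By the brightest probe set of each gene, the 6 measured core subunits of this arm had a median of -0.21, and none was 1.5-fold lower. Some other probe sets of these genes were past 1.5-fold: those of Ndufs8 ran from -0.87 to 0.002 and those of Ndufv2 from -0.66 to -0.42. Ndufv1, which binds the flavin, had an intensity of 11440 untreated and 11706 with T+E2, a difference of 0.03. Its partner Ndufv2, an iron-sulfur protein, had 13425 and 9305, a difference of -0.53, the lowest of the 6. The flavin subunit was thus level between the arrays while its neighbour was 1.44-fold lower. Ndufs1, the large iron-sulfur subunit, had 2639 and 2236 (difference -0.24), and Ndufs8, which holds iron-sulfur clusters on the way to coenzyme Q, had 12723 and 10104 (difference -0.33). Ndufs3 had 14363 and 12753 (difference -0.17), and Ndufs7, which carries the last cluster before coenzyme Q, had 24115 and 23450 (difference -0.04). Of these 6 genes 5 were lower with T+E2, and Ndufs7, Ndufs3, Ndufs1 and Ndufv1 lay within the range of the spikes.

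Accessory subunits surround this core and are needed for its assembly or stability. The 9 measured Ndufb genes, which belong to the membrane arm, had a median of -0.44 and all were lower with T+E2. Ndufb9 had an intensity of 13833 untreated and 7504 with T+E2, a difference of -0.88 and the lowest of complex I. Ndufb2 had 9873 and 5482 (difference -0.85). At the other end Ndufb11 had 26271 and 25368 (difference -0.05). By the brightest probe sets this set thus spanned from a 1.84-fold lower signal to no difference beyond the spikes. Other probe sets of Ndufb11 were at -0.08 and -0.56. The remaining 6 Ndufb genes lay between -0.50 (Ndufb10) and -0.23 (Ndufb5).

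The other 18 accessory subunits of complex I had a median of -0.33, and 17 of them were lower. Ndufs4, a peripheral arm subunit whose loss causes a Leigh-like disease in mice, had an intensity of 7387 untreated and 4099 with T+E2, a difference of -0.85. Ndufa7, also of the peripheral arm, had 15466 and 8843 (difference -0.81), and Ndufs5, a disulfide-bonded subunit on the intermembrane space side, had 4912 and 2850 (difference -0.79). These 3 were between 1.72-fold and 1.80-fold lower on the T+E2 array. Ndufa4 had 10490 and 6858 (difference -0.61); the protein carries a complex I name but is now placed with complex IV, and counting it there changed neither median by more than the spread of the spikes. Just short of 1.5-fold were Ndufa8 and Ndufa1, both at -0.57. The highest of the set was Ndufa10, with 6330 and 6855, a difference of 0.11. Ndufab1, the mitochondrial acyl carrier protein that also serves fatty acid and lipoic acid synthesis, had 8038 and 6200 (difference -0.37).

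Assembly factors of complex I act on intermediates of the enzyme and are absent from its final form. All 8 Ndufaf genes were lower with T+E2, 6 of them (75%) at least 1.5-fold, against 14.1% of all measured genes. Ndufaf5, which hydroxylates an arginine of Ndufs7, had an intensity of 2208 untreated and 727 with T+E2, a difference of -1.60 or 3.04-fold, the lowest of all members. Ndufaf6, needed early in assembly, had 450 and 208 (difference -1.11, 2.16-fold). Each of the pair is represented by 1 probe set above the floor. Ndufaf4 and Ndufaf3, which act together on the part that joins the peripheral arm to the membrane, had 1450 and 841 (difference -0.79) and 899 and 572 (difference -0.65). Ndufaf2, a chaperone of late intermediates, had 2938 and 1873 (difference -0.65), and Ndufaf7, a methyltransferase, had 2406 and 1589 (difference -0.60). Ndufaf8, the partner of Ndufaf5, had 6232 and 4295 (difference -0.54), just under 1.5-fold. Ndufaf1, which joins the membrane arm early, stood apart with 601 and 554 (difference -0.12), within the range of the spikes.

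Complex II, succinate dehydrogenase, is also an enzyme of the citric acid cycle and is wholly encoded in the nucleus. Its 4 genes did not move together. Sdha, the flavoprotein that oxidises succinate, had an intensity of 4810 untreated and 6968 with T+E2, a difference of 0.53 or 1.45-fold higher, the highest of all 81 members. Its second probe set above the floor was also higher, by 0.31. The other three were lower. Sdhb, the iron-sulfur subunit that takes the electrons from Sdha, had 3464 and 2434 (difference -0.51). The membrane anchors Sdhc and Sdhd, which hold heme and the coenzyme Q site, had 5471 and 3866 (difference -0.50) and 6001 and 5075 (difference -0.24). Second probe sets of these anchors were at -0.61 and -0.81. Within the catalytic head of the enzyme the 2 subunits therefore lay on opposite sides of 0, both beyond the range of the spikes.

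Complex III passes electrons from reduced coenzyme Q to cytochrome c through cytochrome b, the Rieske iron-sulfur protein and cytochrome c1. All 8 of its members were lower. The core proteins Uqcrc1 and Uqcrc2 had intensities of 937 untreated and 885 with T+E2 (difference -0.08) and of 23316 and 19527 (difference -0.26). Uqcrfs1, the Rieske protein, had 4236 and 3323 (difference -0.35). The 5 small subunits had a median of -0.68, against -0.26 for these 3. Uqcrq, which sits beside cytochrome b, had 9138 and 4956 (difference -0.88), the lowest of the complex and of all subunit genes. Uqcr11 had 8224 and 4679 (difference -0.81), and Uqcr10 had 14406 and 8974 (difference -0.68). Uqcrh, the acidic hinge protein between cytochromes c1 and c, was at -0.43 and Uqcrb at -0.09. By these values the small subunits did not share 1 size of difference. Second probe sets of Uqcrh and Uqcrb lay closer together, at -0.32 and -0.39.

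Complex IV, cytochrome c oxidase, has a catalytic core made in mitochondria and a ring of nuclear-encoded subunits, several with tissue-restricted isoforms. All 11 measured members were lower. By the brightest probe sets the 9 widely expressed subunits stayed close together, from -0.41 to -0.01 with a median of -0.21. Cox4i1, the isoform at the site where ATP regulates the enzyme, had an intensity of 19079 untreated and 16455 with T+E2 (difference -0.21). Its isoform of lung and low oxygen, Cox4i2, was below the floor on both arrays. Cox5a had 15082 and 13532 (difference -0.16), and Cox5b, a zinc-binding subunit, had 35163 and 29602 (difference -0.25). The probe sets of Cox5b above the floor ran from -0.55 to -0.23. Cox6a1, the widely expressed isoform, had 24231 and 24064, a difference of -0.01, with a second probe set at -0.27. Cox6a2, its heart and skeletal muscle isoform, was the only member of the complex at least 1.5-fold lower, with 159 and 103 (difference -0.63); all 5 striated muscle markers were below the floor. Cox6b1 was at -0.17 while the testis isoform Cox6b2 was below the floor. Cox7a2 was at -0.12 and Cox7a2l, which links complexes III and IV into supercomplexes, at -0.29, while the muscle isoform Cox7a1 was below the floor. Cox8a had 6638 and 5002 (difference -0.41), the lowest of the widely expressed set by the brightest probe sets. Below the floor were Cox8b, Cox8c and Cox7b2. Cox7c, with 136 and 111 (difference -0.30), is read here by a probe set with weak signal. The remaining member, Cox6c, was at -0.26. Besides these 6 isoform genes of complex IV, Ndufa4l2, Ndufb1 and Ndufb4 were below the floor on both arrays, which says that these probe sets had no usable signal. Cox7b, Ndufs6 and Ndufa11 were not analysed here as single genes.

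Complex V consists of the catalytic F1 head, a ring of c subunits in the membrane, a peripheral stalk and small membrane subunits. Of its 17 members 16 were lower, and 3 (17.6%) were at least 1.5-fold lower, near the 14.1% of all measured genes. In the head, Atp5a1 (alpha) had an intensity of 22739 untreated and 25338 with T+E2, a difference of 0.16, and all 3 of its probe sets were higher. Atp5b (beta), which forms the catalytic sites with alpha, had 15148 and 13602 (difference -0.16). Atp5c1 (gamma), the rotating shaft, was at -0.18, and Atp5d (delta) at -0.02. Atp5e (epsilon), which sits at the foot of the shaft, had 20520 and 13206 (difference -0.64). By the brightest probe sets, 4 of the 5 head subunits thus differed by less than 0.20 and epsilon was 1.55-fold lower.

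The c ring is encoded by 3 genes that give the same mature protein. Atp5g1 had an intensity of 12646 untreated and 10041 with T+E2 (difference -0.33), Atp5g2 had 15770 and 13222 (difference -0.25), and Atp5g3 had 21890 and 21802 (difference -0.01). By these brightest probe sets none of the 3 was 1.5-fold lower. Second probe sets with weak signal were at -1.70 for Atp5g2 and 0.67 for Atp5g1. The peripheral stalk holds the head still. Its Atp5j had 9119 and 5761 (difference -0.66), the lowest of complex V by the brightest probe sets. By these, Atp5pb, Atp5h and Atp5o were at -0.39, -0.22 and -0.17. Second probe sets of Atp5pb, Atp5h and Atp5o were at -0.72, -0.57 and -0.31, so that of Atp5pb was lower than Atp5j. Among the small membrane subunits Atp5l, which takes part in pairing the enzyme into dimers, had 11344 and 7358 (difference -0.62). Its neighbour Atp5k had 21150 and 14609 (difference -0.53), and the other 3 (Atp5mpl, Atp5j2 and Atp5md) lay between -0.46 and -0.08. By the brightest probe sets, the medians were -0.16 for the head, -0.25 for the c genes, -0.30 for the stalk and -0.46 for the small membrane subunits.

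Several members are read by more than 1 probe set, which serves as a check of the direction within these 2 arrays but not of the cultures. Of 47 members with more than 1 probe set above the floor, 40 had all of them lower (85.1%), against 27.1% of 4537 such genes over the array. The pair with all higher was Sdha and Atp5a1. The other 5 (Atp5g1, Ndufa10, Ndufab1, Ndufs8 and Ndufv1) had probe sets that were not all on 1 side. Ndufa7 had 5 probe sets, all lower, from -1.20 to -0.72. The size of the difference depended on the probe set used. The dimmest probe set was lower than the brightest in 37 of 47 members (78.7%), against 51.6% of 4245 genes over the array. Its median was -0.41 where that of the brightest was -0.25, and 17 members instead of 6 were at least 1.5-fold lower. Over the 4245 genes that count was also larger, 682 with the dimmest and 421 with the brightest. The widest gaps belonged to weak probe sets: for Atp5c1 the brightest gave -0.18 and the dimmest -2.74, and for Atp5g1 they gave -0.33 and 0.67.

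**Figure D3:**
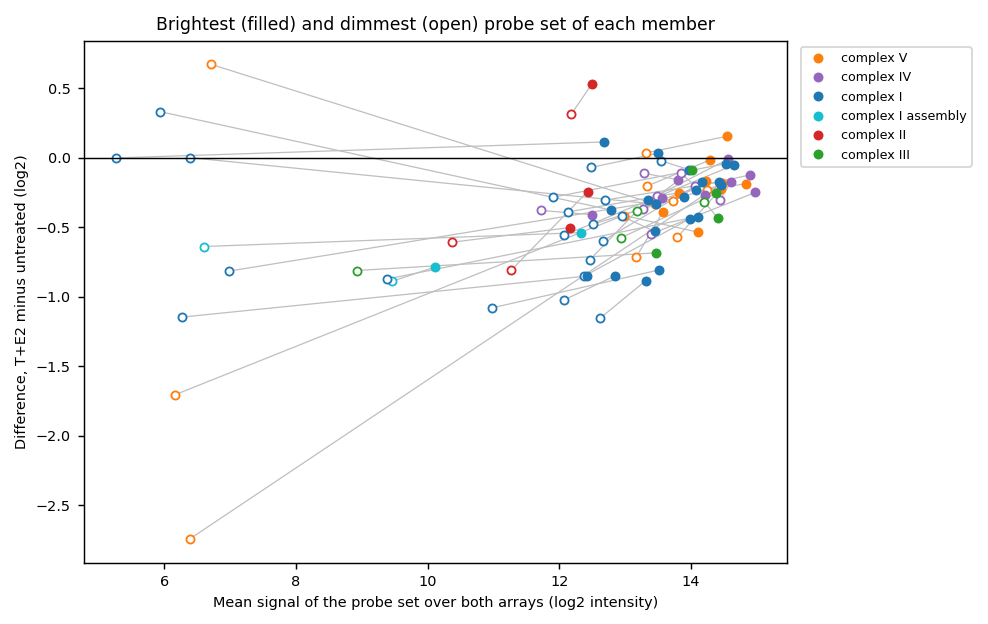
Difference, T+E2 minus untreated (log2, y axis), against mean log2 intensity over both arrays (x axis) for the brightest (filled) and dimmest (open) probe set of the 47 members with more than 1 probe set above the floor on both arrays, joined by lines and coloured by complex. Most lines run down to the left: the dimmest probe set was the lower in 37 of 47.

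Probe sets that name a member together with a second gene lie outside the rule, and 7 of them were above the floor. Those for Ndufs5 with its pseudogene (-0.64), for the Ndufb4 family (-0.65 and -1.13), for Ndufa11 and Ndufa11b (-0.54), for Ndufs6 and Ndufs6b (-0.73) and for Ndufab1 with its pseudogene (-0.54) were lower with T+E2. These are near-identical copies that the probes cannot separate. The last, shared by Yjefn3 and Ndufa13, had 96.9 on both arrays.

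Many members had strong signal, and bright probe sets differed little between the arrays. At a mean log2 intensity of 14 or more, 28 of 29 members were below 0, against 55.7% of 246 genes, and their median was -0.17. Between 13 and 14, 23 of 24 were below 0, against 47.2% of 661 genes, with a median of -0.36. The bright hybridization spikes, with a mean log2 of 13 or more, had a median of 0.07 (range -0.10 to 0.09, n = 10 probe sets). The dimmer spikes had a median of -0.17 (range -0.25 to -0.03, n = 8 probe sets). The median of the bright spikes thus lay above 0 and that of the bright members below it.

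The difference also moved with the length of the gene on the chromosome over the whole array. Genes with a span under 5 kb had a median of -0.20 with 65.5% below 0, and genes over 50 kb a median of 0.39 with 22.1% below 0. The members are short, with a median span of 7.39 kb against 24.5 kb for all measured genes. Among genes under 5 kb all 25 members were below 0, with a median of -0.41. From 5 to 10 kb 28 of 30 were below 0, against 61.5% of all genes of that length, with a median of -0.25 against -0.15. The only 2 members over 50 kb, Ndufs4 (-0.85) and Ndufaf2 (-0.65), were lower as well. After the trend with span was subtracted, 64 of 81 members were below 0, against 48.7% of genes, their median was -0.18, and 11 instead of 19 were at least 1.5-fold lower. The median of the members thus stayed below 0 at a smaller size. Ndufaf5 was then at -1.79, Ndufs4 at -1.23, Ndufaf6 at -1.15 and Ndufaf2 at -1.05. What lies behind the trend with span was not tested.

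**Figure D4:**
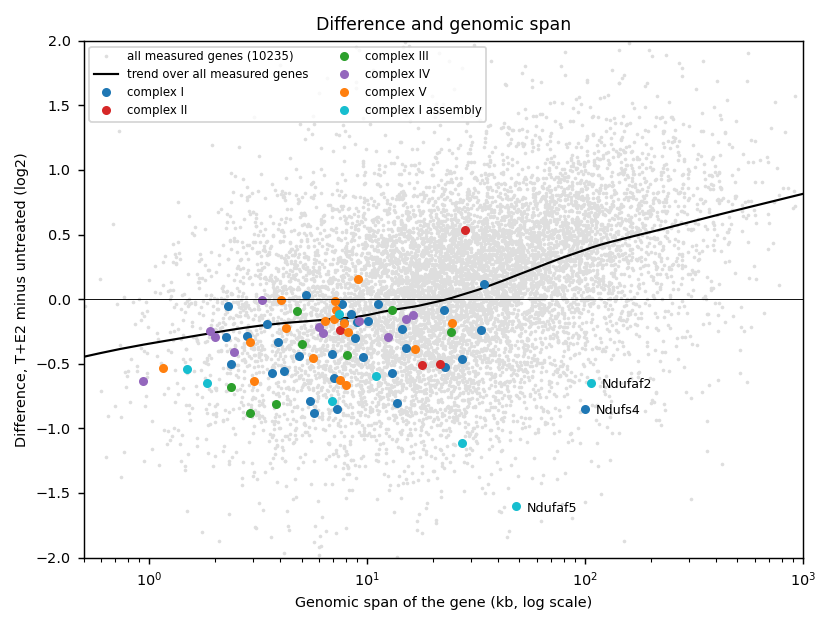
Difference, T+E2 minus untreated (log2, y axis), against genomic span in kb (log x axis), for all measured genes with a span in grey, members coloured by complex, and the trend over all genes as a black line. The line climbs with span, and most members lie at the short end and below it; a few genes that are no members fall outside the axes.

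Genes that work beside the members were grouped by role. Over all measured genes, for comparison, 43.7% were below 0, 14.1% at least 1.5-fold lower and 17.1% at least 1.5-fold higher. Assembly factors of complex II showed the lowest median of any list, -0.95, and all 4 were at least 1.5-fold lower. Sdhaf3 had an intensity of 1072 untreated and 500 with T+E2 (difference -1.10), Sdhaf4 5131 and 2575 (difference -0.995), Sdhaf2, which attaches the flavin to Sdha, 3813 and 2026 (difference -0.91), and Sdhaf1, which serves the iron-sulfur subunit, 810 and 481 (difference -0.75). The flavin-attaching factor and its client Sdha thus differed in opposite directions. Factors of complex V had a median of -0.51 with all 4 lower, from Tmem70 (-0.90), which builds the c ring, to Dmac2l (-0.42). Those of complex III had a median of -0.30 with 4 of 5 lower, from Uqcc2 (-0.66) to Ttc19 (0.45). Those of complex IV had a median of -0.21 with 12 of 19 lower, from Pet100 (-1.26) to Sco1 (1.03), a copper chaperone. Of these 19 genes 6 (31.6%) were at least 1.5-fold lower and 3 at least 1.5-fold higher. Factors of complex I outside the Nduf names had a median of -0.21, 7 of 10 lower and 1 at least 1.5-fold lower, from Lyrm2 (-0.95) to Acad9 (0.19). The listed factors of complexes III and IV, and those of complex I outside the Nduf names, were therefore mixed in direction. All 8 Ndufaf genes, all 4 Sdhaf genes and all 4 factors of complex V were lower.

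Among electron carriers and coenzyme Q genes the median was -0.51, with 13 of 17 lower. Of these 17 genes 6 (35.3%) were at least 1.5-fold lower, against 14.1% of all measured genes. Only 1 was at least 1.5-fold higher, against 17.1%. Cytochrome c (Cycs) had an intensity of 6465 untreated and 4539 with T+E2 (difference -0.51), and cytochrome c1 (Cyc1), a subunit of complex III outside the symbol rule, had 4244 and 3047 (difference -0.48). The extremes were Coq3, a methyltransferase of coenzyme Q synthesis, at -1.37 and Coq8a, a kinase-like regulator of it, at 0.60. Import, carrier and chaperone genes had a median of -0.33 with 15 of 23 lower and 5 (21.7%) at least 1.5-fold lower. They ran from Timm9 (-0.91), a small chaperone of the intermembrane space, to the matrix chaperonin Hspd1 (0.19). The citric acid cycle and pyruvate dehydrogenase list had a median of 0.03, near that of all genes, with 7 of 17 below 0. In this list 3 (17.6%) were at least 1.5-fold lower, near the share of all measured genes. Its differences ran from Dld (-0.72), a shared subunit of the dehydrogenase complexes, to Ogdh (0.55). The regulators of mitochondrial biogenesis had a median of 0.01, from Mterf1a (-1.06) to Gabpb2 (0.33). Of these 19 genes 7 were below 0 and 2 (10.5%) at least 1.5-fold lower. Both of these medians changed sign when the differences were centred on the median of all genes. Nrf1, a factor known to bind promoters of respiratory genes, had 97.4 and 97.9 (difference 0.01). Tfam, a factor that packs mitochondrial DNA and acts in its transcription, had 1766 and 2210 (difference 0.32), and Ppargc1a was below the floor. The 13 subunits encoded in mitochondrial DNA were not analysed here.

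**Figure D5:**
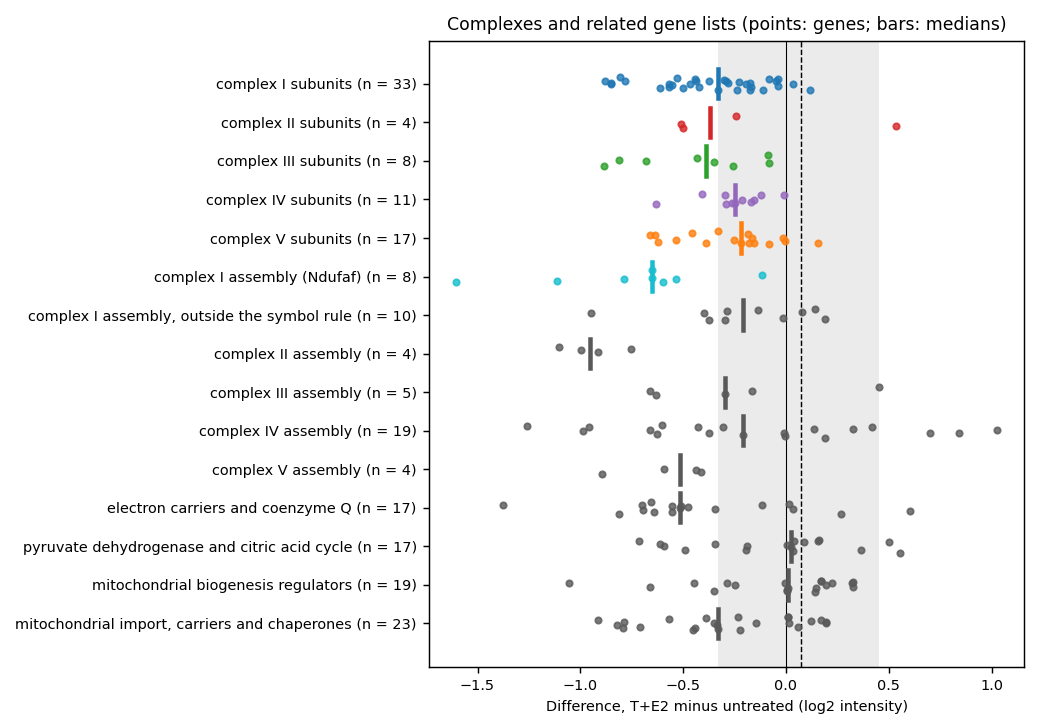
Difference, T+E2 minus untreated (log2), for the measured genes of each complex (coloured) and of each related list (grey); points are genes, vertical bars are medians, the dashed line is the median of all measured genes (0.07) and the grey band their interquartile range. The Ndufaf (median -0.65) and complex II assembly (median -0.95) sets lie farthest left, and the citric acid cycle and biogenesis lists straddle 0.

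The promoters of many respiratory genes are known to carry sites for NRF1, GABP (an ETS factor) and YY1. The RefSeq promoter windows (GRCm38.p6, 250 bases before to 50 after each annotated start) covered 74 of the 90 members, 68 of them measured. Both strands were searched for GCGCANGCG (NRF1), CCGGAAGT (ETS) and AANATGGC (YY1); the NRF1 letters can match on both strands at overlapping positions, and a gene counted once. The NRF1 letters were in 27.9% of the 68 measured members, 16.5% of 8369 measured genes and 7.03% of 27025 genes with a window. The YY1 letters were in 25%, 10.8% and 6.96%, and the ETS letters in 7.35%, 9.97% and 4.31%. The median differences of measured members with and without the letters were -0.25 and -0.33 for NRF1, -0.39 and -0.30 for YY1 and -0.41 and -0.30 for ETS (5 members with a match). A gene with several annotated starts has several windows and so more chances of a match. A match describes the letters in a window and is not a bound site.

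The 150 bases before the start are shown 5′ to 3′ on the gene's strand, with the motif in capitals. Shown are the member with the highest difference (Sdha), an assembly factor (Ndufaf4) and 3 subunits at least 1.5-fold lower. All come from members with a match in these bases, so they do not show how often lower members carry one. No match was found for some other subunits at least 1.5-fold lower, among them Ndufb9, Uqcrq and Ndufb2, though not every member had a window. Further subunits at least 1.5-fold lower did have a match in the searched windows: NRF1 letters for Ndufs5 and Atp5l, and YY1 letters for Ndufs4.
Sdha (chr13:74350241-74350390, minus strand): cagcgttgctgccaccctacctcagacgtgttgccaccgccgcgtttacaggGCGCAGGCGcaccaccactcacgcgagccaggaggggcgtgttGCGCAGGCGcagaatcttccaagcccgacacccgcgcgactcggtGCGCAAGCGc
Ndufaf4 (chr4:24897933-24898082, plus strand): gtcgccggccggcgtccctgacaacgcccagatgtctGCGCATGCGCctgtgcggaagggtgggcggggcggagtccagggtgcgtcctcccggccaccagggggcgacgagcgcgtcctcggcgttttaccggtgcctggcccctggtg
Ndufa7 (chr17:33824495-33824644, plus strand): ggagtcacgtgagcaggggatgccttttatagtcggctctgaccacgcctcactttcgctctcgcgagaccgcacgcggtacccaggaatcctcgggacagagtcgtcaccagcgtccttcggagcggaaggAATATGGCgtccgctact
Uqcr11 (chr10:80406822-80406971, minus strand): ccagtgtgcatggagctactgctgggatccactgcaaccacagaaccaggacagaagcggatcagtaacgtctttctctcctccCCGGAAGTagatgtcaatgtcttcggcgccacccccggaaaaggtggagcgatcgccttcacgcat
Atp5j (chr16:84834977-84835126, minus strand): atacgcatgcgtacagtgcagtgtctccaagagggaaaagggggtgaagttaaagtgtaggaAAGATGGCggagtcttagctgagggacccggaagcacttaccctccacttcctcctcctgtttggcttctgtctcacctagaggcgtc
The Sdha window holds 3 matches to the NRF1 letters and Ndufaf4 has overlapping matches on both strands, and their differences were 0.53 and -0.79. The capitals mark YY1 letters in Ndufa7 (-0.81) and Atp5j (-0.66) and ETS letters in Uqcr11 (-0.81). Uqcr11 also had a match to the NRF1 letters that crosses the start, runs past the bases shown and is not in capitals.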

How the data were processed

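RNA of 2 cultures was purified with a kit of Omega Bio-Tek, turned into labelled cDNA by NuGEN chemistry (per the labels' protocols) and hybridised to Affymetrix mouse arrays. The deposited values are intensities on a linear scale; per the submitters' processing notes the authors used GCRMA, which corrects background, normalizes between arrays and summarises probes. No version of it is known here. Log2 values were used with no further scaling. Of 45101 probe sets, 34945 name 1 gene in the platform annotation, 932 several, 9160 none and 64 are controls. A gene's value is its probe set with the highest mean log2; both arrays were floored at 5 and genes with at least 1 array there were kept. Spans and promoters come from RefSeq (GRCm38.p6), matched by gene symbol or gene ID. The trend with span was a lowess fit (statsmodels 0.14.6, fraction 0.3). Scripts (Python 3.11.15, pandas 2.3.3) were tested on simulated data.

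The number of arrays limits precision: with 1 per group no test was run, and folds of 1.5 and 2 served as thresholds. Members and lists were chosen with earlier results of these data known. Named genes are the members past 1.5-fold, the extremes of each complex and list, catalytic subunits, isoform sets and members below the floor; others were named to complete a set or after their values were seen. Alternatives changed the floor, the probe set, the centring, the trend with span or level, and the membership.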

Additional observations from a re-analysis of the deposited data

How the results depend on the processing

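No paired analysis was possible because each group has 1 array. Of the values recomputed for counts and medians of members and lists, 203 stayed within 1.5 times (counts) or the SD of the hybridization spikes (medians), 32 moved further and 10 changed sign; of those of single genes 419 stayed and 83 moved. Members below 0 numbered from 55 of the 59 left by unsuffixed probe sets, and 64 of 81 after removal of the span trend, to 79 of 90 without a floor. With the dimmest probe set, an alternative chosen after seeing the data, 30 members were at least 1.5-fold lower, 1 at least 1.5-fold higher and 8 at least 2-fold lower; medians were -0.47 (all members), -0.48 (complex I), -0.56 (II), -0.41 (V), -0.88 (complex III assembly), -0.38 (complex IV assembly), -0.073 (biogenesis) and -0.12 (citric acid cycle). With the mean of probe sets 4 were at least 2-fold lower, and medians were -0.52 (II), -0.40 (V), -0.82 (complex II assembly), -0.70 (complex III assembly), -0.0047 (biogenesis) and -0.048 (citric acid cycle). With their median, also chosen after seeing the data, 5 were at least 2-fold lower, and medians were -0.52 (II), -0.40 (V) and -0.63 (complex III assembly). Unsuffixed probe sets gave 1 at least 1.5-fold higher, 4 at least 2-fold lower, and medians of -0.48 (all), -0.56 (I), -0.51 (II) and -0.60 (import). With the span trend removed 11 were at least 1.5-fold and 4 at least 2-fold lower, and medians were -0.18 (all), -0.063 (IV), -0.021 (complex IV assembly), -0.18 (import), -0.0239 (biogenesis) and -0.024 (citric acid cycle). With the level trend removed biogenesis and citric acid cycle were at -0.014 and -0.015, and after centring at -0.063 and -0.046. Subunits alone gave 0 at least 2-fold lower, and the mean over complex II was -0.18. The cause of these shifts was not tested.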
